A study of Mus musculus with 6 samples.

Results

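The insulin-like growth factor (IGF) system was followed through 10 genes of the monocyte count table: the ligands Igf1 and Igf2, the receptors Igf1r and Igf2r, and the binding proteins Igfbp2, Igfbp3, Igfbp4, Igfbp5, Igfbp6 and Igfbp7. The genes were taken by their names, and all 10 were found among the 57010 genes listed. The question was how this system differed between monocytes of the 2 skeletal sites, with the femur as the baseline. C57BL/6 mice 1 year old, C57Bl/6J by the study's methods, gave 6 libraries. Mandibular-derived monocytes made up S16, S19 and S23, and femur-derived ones S13, S15 and S18. The study used male and female mice and flushed the marrow from the dissected bones, then kept the cells that passed a magnetic column after antibodies to other marrow cells had been bound. No treatment or culture separated the groups, and how many animals entered a library, and of which sex, was not named in the labels. P-values therefore measure the spread between these libraries, which may be partly technical.

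IGF-1 and IGF-2 are small secreted proteins that promote growth and survival and are stored in bone matrix. Both signal through the IGF-1 receptor, a tyrosine kinase that acts through insulin receptor substrates, PI3K and Akt, while the IGF-2 receptor takes up IGF-2 for degradation and carries lysosomal enzymes. Most IGF outside cells is held by binding proteins, which prolong its life, limit its access to the receptor, or release it when they are cut by proteases. Osteoblasts, stromal cells and macrophages are known sources of Igf1 transcript, and Igfbp5 and Igfbp3 proteins are abundant in bone.

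Libraries S15 and S23 stood apart. Femur library S15 had a count in 40494 genes, against 17481 to 23513 genes in the other 5 libraries, and its summed neutrophil markers were 3653 counts per 1000000 (CPM), against 23470 and 32400 CPM in the other femur libraries. Mandible library S23 had 25189 counts of Xist, the noncoding RNA that silences an X chromosome in female cells, against at most 12 elsewhere, and it alone had 0 counts of Uty, Kdm5d, Ddx3y and Eif2s3y, which lie on the Y chromosome. The totals were 15718782 to 25371474 counts per library. Expression is given as CPM after TMM scaling. Where 0 was counted, up to 3 counts remain possible, or 0.133 to 0.172 CPM by library, and this limit covers counting error only.

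The labelled cell type was checked against its markers. All 7 monocyte markers examined were present in each library, and their summed level was 7598 to 14180 CPM at the femur and 6596 to 11780 CPM at the mandible. Most of this sum was Lyz2, the lysozyme of myeloid cells, and 1 of the 7, Nr4a1, was called higher in the mandible. Markers of other cells were present as well and differed by site. All 12 mesenchymal and osteoblast markers were called higher in the mandible, where they summed to 8806 to 15220 CPM, against 144.7 to 176.2 CPM in the femur. The dental epithelium list, with the enamel gene Amelx, summed to 5756 to 11270 CPM in the mandible and 1.27 to 4.01 CPM in the femur. Of its 6 markers, 5 were called higher in the mandible, and Epcam was not called, at a log2 fold change of -0.48. The skeletal muscle list, with Acta1, summed to 1082 to 3813 CPM and 4.15 to 34.1 CPM. Megakaryocyte and platelet markers ran the other way, with 528.6 to 849.2 CPM in the femur and 72.0 to 104.5 CPM in the mandible. In bulk RNA, fewer cells of a type and less RNA per cell cannot be told apart.

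All 10 members were tested, and 4 were called higher in the mandible: Igf1, Igfbp3, Igfbp5 and Igfbp6. A call required a fold change of at least 2 and a Benjamini-Hochberg (BH) adjusted p under 0.05 over all tested genes in edgeR's quasi-likelihood test. No member was called lower. Of the 18114 genes tested, 5.18% were called, 3.88% higher and 1.3% lower. All 10 members had a log2 fold change above 0, as did 47.8% of all tested genes, and the members' median was 2.30, against -0.038 over all tested genes. In 7 members every mandible library lay above every femur library, which held for 12.7% of the tested genes. Igf2, Igfbp2 and Igfbp6 lacked 10 counts in some femur libraries and passed the filter on low counts through the mandible libraries. Their place above 0, their part in the members' median, and the lack of overlap in Igf2 and Igfbp6 are thus not independent of the filter. The other 7 members had 10 counts or more in each library, 3 of them called. Among these 7, the groups did not overlap in Igf1, Igf2r, Igfbp3, Igfbp4 and Igfbp5. The members' summed counts were 0.0274 to 0.0498% of a femur library's total and 0.108 to 0.211% of a mandible library's.

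**Figure D1:**
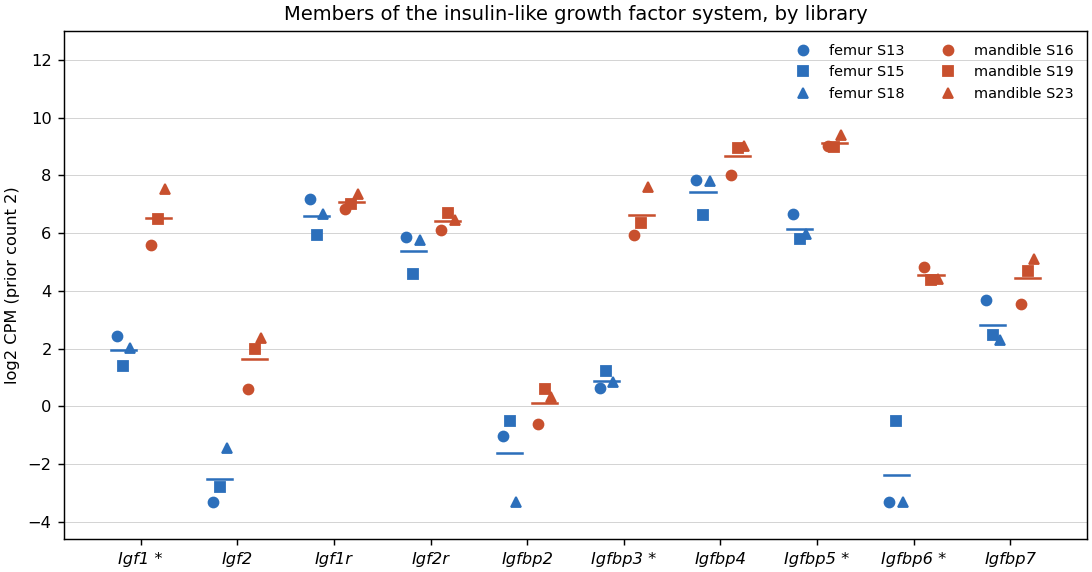
Level of each member in each library, as log2 CPM with a prior count of 2 on the vertical axis. Blue points are femur libraries, red points mandible libraries, bars are means of 3, and a star marks the 4 called members. The groups are apart in 7 members and overlap in Igf1r, Igfbp2 and Igfbp7.

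Sequences upstream of the start sites were examined because 3 binding protein genes were called together. RefSeq gives 14 start sites for the 10 members on GRCm38.p6, and the 250 bases before each were searched on both strands for 6 motifs, none of which contains another. They were the TATA box TATAAA, found in 12.4% of 32851 such windows of all genes, CCAAT (33.8%), the GC box GGGCGG (32.7%), the E-box CACGTG (6.02%), the AP-1 site TGANTCA (6.75%) and the cAMP response element TGACGTCA (1.55%). The upstream sequences of the 3 called binding proteins and of Igfbp4, the most abundant binding protein of the femur, are given 5′ to 3′ on the strand of the gene, with motif matches in capitals. They lie at chr11:7213924-7214173 (minus strand) for Igfbp3, chr1:72874885-72875115 (minus strand) for Igfbp5, chr15:102143936-102144185 (plus strand) for Igfbp6 and chr11:99040994-99041243 (plus strand) for Igfbp4. For Igfbp5 the last 19 bases of the window are exonic in GENCODE M21 and were left off.
Igfbp3: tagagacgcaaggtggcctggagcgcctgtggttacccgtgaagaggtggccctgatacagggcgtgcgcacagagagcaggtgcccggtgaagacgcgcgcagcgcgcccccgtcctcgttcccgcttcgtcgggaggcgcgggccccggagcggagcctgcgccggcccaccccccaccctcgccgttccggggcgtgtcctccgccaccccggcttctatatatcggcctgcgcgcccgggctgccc
Igfbp5: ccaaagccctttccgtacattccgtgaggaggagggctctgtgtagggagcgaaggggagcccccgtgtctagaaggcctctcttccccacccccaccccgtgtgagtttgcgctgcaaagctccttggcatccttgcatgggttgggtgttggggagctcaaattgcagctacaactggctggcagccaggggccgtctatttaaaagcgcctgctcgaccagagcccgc
Igfbp6: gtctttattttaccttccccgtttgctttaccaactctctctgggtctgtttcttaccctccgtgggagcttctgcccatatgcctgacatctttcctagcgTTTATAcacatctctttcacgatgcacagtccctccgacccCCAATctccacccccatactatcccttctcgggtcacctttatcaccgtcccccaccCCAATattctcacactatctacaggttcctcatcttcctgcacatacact
Igfbp4: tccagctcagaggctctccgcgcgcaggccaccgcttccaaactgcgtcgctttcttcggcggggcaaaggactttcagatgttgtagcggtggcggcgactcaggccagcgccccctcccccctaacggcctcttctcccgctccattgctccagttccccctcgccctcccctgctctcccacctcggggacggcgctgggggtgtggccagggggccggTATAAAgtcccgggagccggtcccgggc

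The called binding proteins shared none of the 6 motifs. None of them was present, as the exact letters searched, in the windows of Igfbp3 and Igfbp5. Letters close to the TATA box, such as tatatat in Igfbp3 and tatttaaa in Igfbp5, were not counted as matches. The window of Igfbp6 held CCAAT at 107 and 50 bases before the start and a TATA box letter match on the opposite strand, and that of Igfbp4 held TATAAA at 28 bases before the start. The G and C share was 73.2% in Igfbp3, 60.6% in the printed bases of Igfbp5, 49.6% in Igfbp6 and 69.2% in Igfbp4, against a median of 52.4% over all windows. The window of Igf1 is not printed because it lies wholly within an exon of another Igf1 transcript in M21. It held CCAAT on the opposite strand at 142 and TGANTCA at 37 bases before the start. Among uncalled members, TGANTCA was also found in a window of Igfbp2, at 39 bases before the start. CCAAT was found in a window of Igf2 and CACGTG in windows of Igf2r and Igfbp2. GC boxes were found in windows of Igf2, Igf1r, Igf2r, Igfbp2 and Igfbp7. These matches are letters in a window and were not tested as binding sites.

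Among the ligands, Igf1 rose in the mandible. Igf1 encodes the ligand made in bone and marrow as well as liver, and lies on chromosome 10 from 87858265 to 87937042 of GRCm38 (plus strand). It was measured at 5.36, 2.53 and 3.93 CPM in femur libraries S13, S15 and S18, and at 47.6, 89.4 and 185.9 CPM in mandible libraries S16, S19 and S23. The groups did not overlap, and the mandible libraries were themselves spread, with S23 at 3.91 times the level of S16. Means were 3.94 ± 1.41 CPM at the femur and 107.6 ± 70.9 CPM at the mandible (SD, n = 3 each). The log2 fold change of Igf1 was 4.77 (standard error 0.52, edgeR quasi-likelihood, BH-adjusted p = 0.00037), and the exact two-sided permutation test gave p = 0.1, the smallest that 3 against 3 libraries allow. Without S15 it was 4.50 and without S23 it was 4.07, and the call held in both.

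Igf2, the ligand best known from fetal growth and expressed from the paternal allele, was low at both sites. It lies on chromosome 7 from 142650766 to 142666816 (minus strand). There were 0, 1 and 6 counts in S13, S15 and S18, and 28, 81 and 88 counts in S16, S19 and S23. Every mandible library was above every femur library, but the counts were few and Igf2 was not called, at a log2 fold change of 4.93 (standard error 1.5, edgeR quasi-likelihood, BH-adjusted p = 0.097). Its mean was 0.104 ± 0.142 CPM at the femur and 3.43 ± 1.85 CPM at the mandible (SD, n = 3 each). Without S18 the log2 fold change of Igf2 was 6.82, and no fit that left out 1 library called it, while DESeq2 with all 6 libraries did (BH-adjusted p = 0.0025). The span of the antisense gene Igf2os, with at most 16 counts in a library, overlaps that of Igf2. Whether their exons overlap was not established, and use of the strand in counting was not stated. H19, the noncoding RNA next to Igf2 that is expressed from the maternal allele, had 1, 9 and 1 counts in S13, S15 and S18 and rose to 710, 674 and 2083 counts in S16, S19 and S23. Its log2 fold change was 8.42 (standard error 0.84, edgeR quasi-likelihood, BH-adjusted p = 0.00023). With limma-voom H19 was not called (BH-adjusted p = 0.072).

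Neither receptor was called. Igf1r, the signaling receptor, lies on chromosome 7 from 67952827 to 68233668 (plus strand). Its levels were 143.8, 60.4 and 102.5 CPM in S13, S15 and S18 and 113.0, 130 and 164.7 CPM in S16, S19 and S23, so that the groups overlapped. The lowest value was that of S15. Igf1r differed by 0.41 on the log2 scale (standard error 0.33, edgeR quasi-likelihood, BH-adjusted p = 0.64; exact two-sided permutation p = 0.4). It turned to -0.50 after correction of each library's trend with gene length and to -0.065 without both S15 and S23, with no call in either.

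Igf2r, which removes IGF-2 and sorts lysosomal enzymes, lies on chromosome 17 from 12682406 to 12769664 (minus strand). It was at 57.8, 23.8 and 53.9 CPM in the femur libraries S13, S15 and S18, and at 69.4, 104.4 and 87.1 CPM in S16, S19 and S23. The groups did not overlap, but the difference did not pass the threshold, at a log2 fold change of 0.94 (standard error 0.34, edgeR quasi-likelihood, BH-adjusted p = 0.17; exact two-sided permutation p = 0.1). The difference in Igf2r was 0.29 after the length correction and 0.59 without S15, with no call in either. The antisense RNA Airn overlaps Igf2r and had at most 56 counts in a library. Compared per kilobase of exon, the ratio of Igf1r to Igf2r was 1.06 to 1.41 in the femur libraries and 0.691 to 1.05 in the mandible libraries. On the log2 scale this ratio was 0.34 ± 0.23 (SD, n = 3) in the femur and -0.20 ± 0.31 (SD, n = 3) in the mandible, ranges that only just failed to overlap (exact two-sided permutation p = 0.1).

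Of the binding proteins, Igfbp3, Igfbp5 and Igfbp6 rose in the mandible. Igfbp3, the main IGF carrier of blood serum, lies on chromosome 11 from 7206086 to 7213923 (minus strand). It was at 1.44, 2.21 and 1.68 CPM in S13, S15 and S18, and at 60.4, 80.9 and 191.7 CPM in S16, S19 and S23. As with Igf1, S23 was the highest mandible library, at 3.17 times S16. Means were 1.78 ± 0.40 and 111.0 ± 70.6 CPM at femur and mandible (SD, n = 3 each). Igfbp3 had the log2 fold change 5.96 (standard error 0.50, edgeR quasi-likelihood, BH-adjusted p = 6.2e-05), 6.10 without S15 and 5.25 without S23.

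Igfbp5, a binding protein that attaches to bone matrix, lies on chromosome 1 from 72857932 to 72874884 (minus strand). It had 101.2, 55.8 and 63.0 CPM in S13, S15 and S18, and 517.2, 508.8 and 683.1 CPM in S16, S19 and S23. It was thus abundant at both sites, and the mandible libraries lay close together. The mean rose from 73.3 ± 24.4 to 569.7 ± 98.3 CPM (SD, n = 3 each). For Igfbp5 the log2 fold change was 2.96 (standard error 0.33, edgeR quasi-likelihood, BH-adjusted p = 0.00042), and it was 2.75 without S15 and 2.75 without S23.

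Igfbp6, which prefers IGF-2 over IGF-1, lies on chromosome 15 from 102144362 to 102149511 (plus strand). It had 0, 13 and 0 counts in femur libraries S13, S15 and S18, and 569, 436 and 372 counts in mandible libraries S16, S19 and S23. All its femur counts were in S15, the library with counts in the most genes. The mandible mean was 23.5 ± 4.33 CPM (SD, n = 3). Unlike Igf1 and Igfbp3 it was highest in S16, and S23 stood at 0.747 times S16. For Igfbp6 the log2 fold change was 6.80 (standard error 1.03, edgeR quasi-likelihood, BH-adjusted p = 0.0029). Without S15 the fitted value was 11.85 and rested on 0 femur counts. Against 3 counts in each of the 2 remaining femur libraries, Igfbp6 was then at least 157.5-fold higher in the mandible.

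Igfbp4, Igfbp7 and Igfbp2 were not called. Igfbp4, an inhibitory binding protein that is cut by the protease Pappa, lies on chromosome 11 from 99041244 to 99054392 (plus strand). It was at 229.7, 98.3 and 226.6 CPM in S13, S15 and S18, and at 259.4, 493.8 and 520.7 CPM in S16, S19 and S23. The groups did not overlap, though S16 was near the upper femur libraries. Igfbp4 differed by 1.20 on the log2 scale (standard error 0.39, edgeR quasi-likelihood, BH-adjusted p = 0.12), and DESeq2 called it (BH-adjusted p = 0.013), as did edgeR without a filter on low counts (BH-adjusted p = 0.017). 

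Igfbp7, a relative that binds IGFs weakly, lies on chromosome 5 from 77349240 to 77408041 (minus strand). It had 12.6, 5.48 and 4.77 CPM in the femur libraries S13, S15 and S18, and 11.5, 25.8 and 34.1 CPM in S16, S19 and S23. S13 was above S16, so the groups overlapped. Igfbp7 differed by 1.64 on the log2 scale (standard error 0.52, edgeR quasi-likelihood, BH-adjusted p = 0.11), and DESeq2, edgeR without a filter and the correction for gene length each called it (BH-adjusted p from 0.014 to 0.037). The span of Igfbp7 overlaps that of Polr2b on the other strand, a gene with up to 2180 counts in a library. Whether their exons overlap was not established, so an effect on the counts of Igfbp7 remains possible.

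Igfbp2, a binding protein of stromal and many other cells, lies on chromosome 1 from 72824503 to 72852474 (plus strand), beside Igfbp5. It had 7, 13 and 0 counts in S13, S15 and S18 and 11, 30 and 20 counts in S16, S19 and S23. A difference was not detectable at this depth, at a log2 fold change of 1.65 (standard error 1.73, edgeR quasi-likelihood, BH-adjusted p = 0.75).

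**Figure D2:**
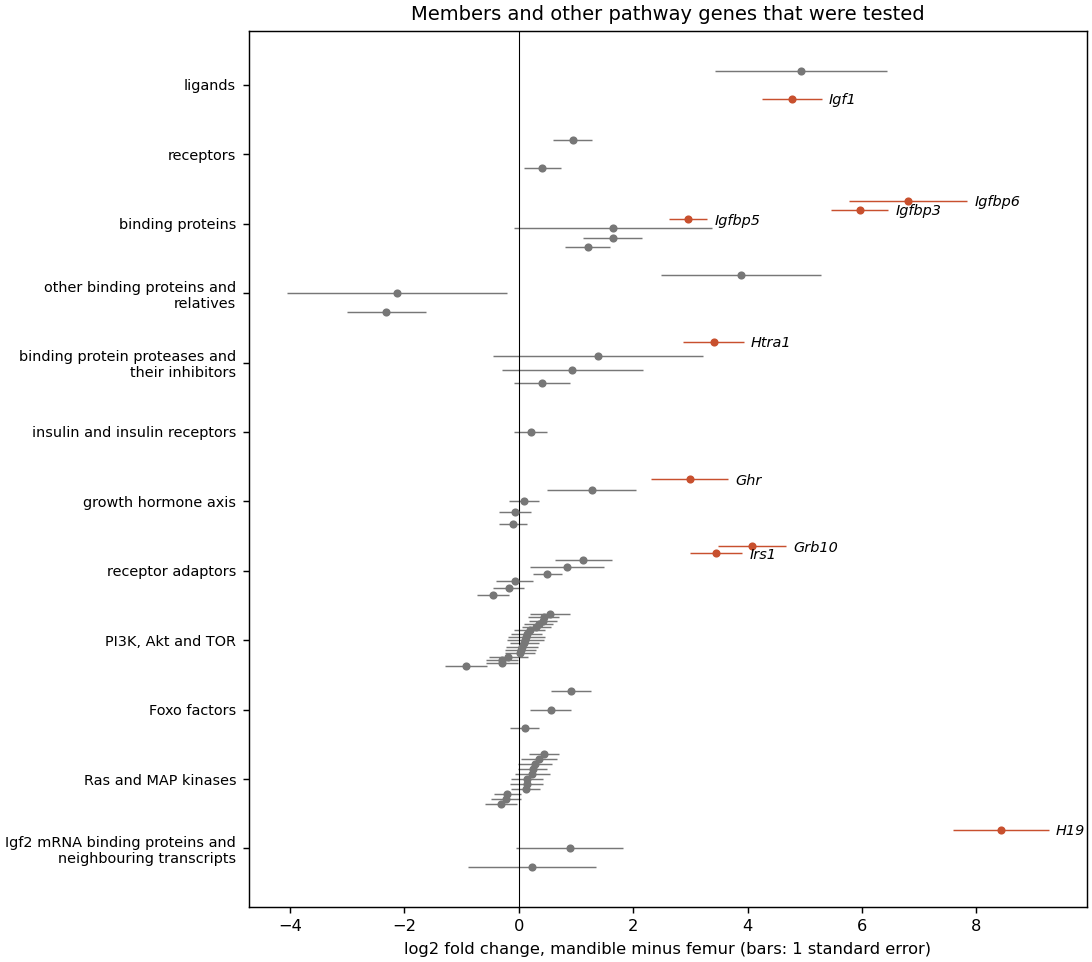
Log2 fold change of the 10 members and of 55 other tested genes of the IGF and insulin pathway, grouped by role, with mandible minus femur on the horizontal axis and bars of 1 standard error. Red points are called genes and grey points are not. The called genes lie between 2.96 and 8.42, and none of the PI3K, Akt, TOR, Ras and MAP kinase genes is called.

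Levels of different members were set beside each other only per length, as CPM per kilobase of exon. In the femur, Igfbp4 was the highest at 41.9 ± 17.0 (SD, n = 3), with a range above that of every other member. It was followed by Igfbp5 at 12.2, Igfbp7 at 6.32, Igf1r at 6.09 and Igf2r at 4.85, and the ranges of neighbours in this order overlapped. Igfbp3, Igf1, Igfbp6 and Igfbp2 lay between 0.178 and 0.567 and also overlapped, and Igf2 was the lowest at 0.0181, overlapping Igfbp2. In the mandible, Igfbp4 at 96.2 ± 32.5 and Igfbp5 at 94.9 ± 16.4 CPM per kilobase (SD, n = 3) did not differ beyond their ranges. Igfbp3 at 35.5, Igfbp6 at 21.1, Igfbp7 at 19.7, Igf1 at 10.9, Igf2r at 9.34 and Igf1r at 8.10 followed, each overlapping the next. Igf2 at 0.599 and Igfbp2 at 0.563 came last and overlapped each other.

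The mix of binding protein transcripts was set side by side between the sites, and 4 of the 6 shares did not overlap. As a share of the summed CPM per kilobase of the 6 binding proteins, which does not depend on the scaling between libraries, Igfbp4 made up 65.0, 59.1 and 77.4% in S13, S15 and S18 and 29.4, 42.5 and 34.6% in S16, S19 and S23. Every mandible library thus had a smaller share of Igfbp4 than any femur library. Its level in CPM was higher in every mandible library than in any femur library, though not called. The 6 shares are parts of the same sum and are not independent, so larger shares of some go with smaller shares of others. Igfbp5 went from 20.5 ± 4.46% to 36.2 ± 6.01%, Igfbp3 from 1.09 ± 0.69% to 12.5 ± 4.75% and Igfbp6 from 0.477 ± 0.826% to 8.51 ± 3.81% (SD, n = 3 in each group). These 4 shares had no overlap between the sites (p = 0.1 for each in the exact permutation test, two-sided, unadjusted over the 8 shares and ratios compared, and the smallest possible). The share of Igfbp7 was 10.4 ± 3.85% in the femur and 7.05 ± 1.98% in the mandible and overlapped (exact two-sided permutation p = 0.3). That of Igfbp2 was below 1% in each library (exact two-sided permutation p = 0.8).

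**Figure D3:**
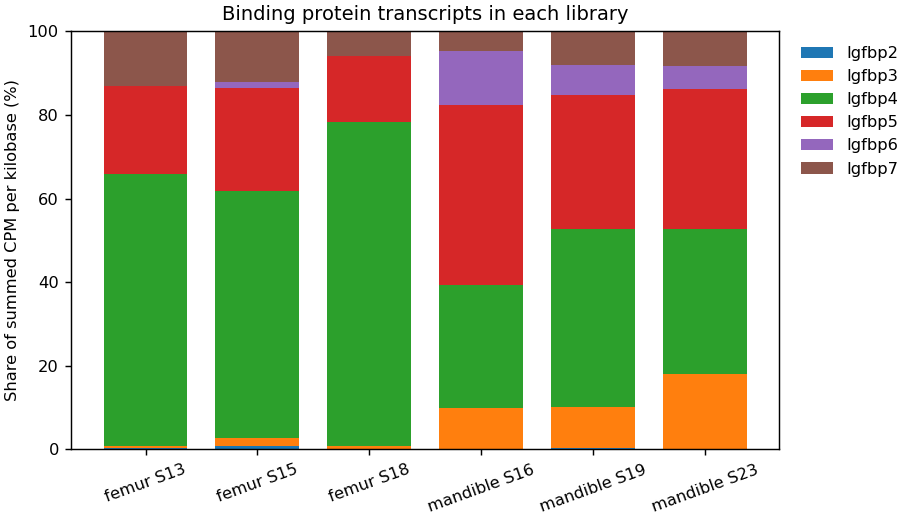
Share of each binding protein in the summed CPM per kilobase of the 6 binding proteins, in percent, for each library. Igfbp4 takes 59.1 to 77.4% in the femur bars and 29.4 to 42.5% in the mandible bars, where Igfbp3, Igfbp5 and Igfbp6 take larger shares.

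Binding protein transcripts outnumbered ligand transcripts at both sites, by a smaller factor in the mandible. Per kilobase, the 6 binding proteins together were 142.7 to 149.5 times Igf1 plus Igf2 in the femur libraries and 17.4 to 39.5 times in the mandible libraries. The log2 ratio was 7.20 ± 0.035 (SD, n = 3) and 4.73 ± 0.59 (SD, n = 3), a difference of -2.47 with no overlap (exact two-sided permutation p = 0.1). The 3 femur libraries were nearly equal in this ratio, S15 included.

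Other genes of the IGF and insulin pathway were followed in a list of 66, of which 55 were tested. Of these, 5 were called higher (9.09%, against 3.88% of all tested genes) and none lower, 10 had an unadjusted p under 0.05 (as did 2975 of the 18114 tested genes), and the median log2 fold change was 0.21, against -0.038 over all tested genes. The called genes include H19, which was listed as a transcript next to Igf2 rather than for a role in signaling. With 1, 9 and 1 counts in the femur libraries, H19 passed the filter on low counts through the mandible libraries. Its part in the 9.09% is thus not independent of the filter. The other called genes were Irs1, Grb10, Htra1 and Ghr. Irs1, a substrate that links the IGF-1 receptor to PI3K, rose from 2.08 ± 0.91 to 22.8 ± 2.17 CPM (SD, n = 3 each), by log2 3.44 (standard error 0.46, edgeR quasi-likelihood, BH-adjusted p = 0.0012). Grb10, an imprinted adaptor that restrains the same receptors, rose from 2.58 ± 1.13 to 43.3 ± 30.9 CPM (SD, n = 3 each), by log2 4.07 (standard error 0.59, edgeR quasi-likelihood, BH-adjusted p = 0.0023). Its mandible libraries were as spread as those of Igf1, with S23 at 4.35 times S16.

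Htra1, a secreted protease that can cut binding proteins, rose from 2.42 ± 1.15 to 25.6 ± 11.8 CPM (SD, n = 3 each), by log2 3.40 (standard error 0.53, edgeR quasi-likelihood, BH-adjusted p = 0.0033). The span of Htra1 overlaps that of Fgfr2 on the other strand, which had up to 1288 counts in a library. Whether their exons overlap was not established, so an effect on the counts of Htra1 remains possible. Pappa, the protease of Igfbp4, was at 8.48 ± 3.37 and 11.2 ± 4.05 CPM (SD, n = 3) in the femur and mandible and was not called. Ghr, the growth hormone receptor, whose signal raises Igf1 in liver, rose by 2.99 on the log2 scale (standard error 0.68, edgeR quasi-likelihood, BH-adjusted p = 0.027). The call of Ghr was lost without S13, S18, S19 or S23 (BH-adjusted p 0.072, 0.072, 0.080 and 0.16, edgeR quasi-likelihood) and with limma-voom (BH-adjusted p = 0.064).

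The intracellular steps after the receptor were read against the 5.18% of all tested genes that were called, a share at which few or no calls fall in lists this short. None of the 17 tested genes of PI3K, Akt and TOR was called, and their log2 fold changes ran from -0.93 to 0.55 with a median of 0.11. Among them was Pik3cd, a catalytic subunit of leukocyte PI3K, at 257.6 ± 83.7 and 281.8 ± 73.2 CPM (SD, n = 3 each) at femur and mandible. None of the 11 genes of Ras and MAP kinases was called either, with a median of 0.14, nor any of 3 tested Foxo factors, with a median of 0.56. Among 8 tested receptor adaptors, Grb2 and Shc1 had log2 fold changes of -0.076 (standard error 0.33) and -0.17 (standard error 0.27), and 6 of the 8 were not called. The insulin receptor Insr was at 72.2 ± 21.2 and 83.4 ± 17.7 CPM at femur and mandible (SD, n = 3 each). The insulin genes Ins1 and Ins2 and the binding protein Igfbp1 had 0 counts in every library but S15, where they had 3, 6 and 7. Of the 3 tested relatives of the binding proteins none was called. Kazald1 went from 0.553 ± 0.958 to 8.29 ± 0.47 CPM (SD, n = 3 each; edgeR quasi-likelihood, BH-adjusted p = 0.17). Esm1, a secreted proteoglycan of endothelium, differed by -2.32 on the log2 scale (standard error 0.69, edgeR quasi-likelihood, BH-adjusted p = 0.092).

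The genes whose pattern over the 6 libraries was nearest to each called member were found among 9399 other tested genes with a mean of at least 10 CPM, by the mean absolute difference of log2 CPM after centring each gene on its own mean. Nearest to Igf1 were Ogn, Maged1 and Nid1, with mean differences of 0.25 to 0.33 on the log2 scale. Those nearest to Igfbp3 were Adamts9, Wif1 and Map1b, at 0.29 to 0.36. For Igfbp5 they were Nfib, Rcn3 and P3h3, at 0.14 to 0.17, and for Igfbp6 they were Hand2, Col24a1 and Dlx3, at 0.14 to 0.25. The 4 members had different nearest genes. Each of these genes was itself called higher in the mandible, which follows from a measure that includes the difference between the sites. For Igfbp6 the match was made near the limit of counting in the femur. Femur means there were 0.138 CPM for Hand2, 0.200 CPM for Col24a1 and 0.108 CPM for Dlx3. The measure is a description over 6 libraries that share the site, the depth and the scaling, and is given without a test.

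The spread of the members among the mandible libraries was set beside that of the cell type markers. Within the mandible, the summed level of mesenchymal and osteoblast markers in S23 was 1.73 times that in S16. That of mural and smooth muscle markers was 3.27 times, of marrow niche stroma 3.24 times, of chondrocytes 2.03 times and of dental epithelium 1.96 times. That of skeletal muscle was 1.69 times, of T and NK cells 2.98 times, and of monocyte markers 0.677 times. Igf1 at 3.91, Igf2 at 3.59 and Igfbp3 at 3.17 times, and Igfbp5 at 1.32 and Igfbp6 at 0.747 times, were the ratios of the members whose groups were farthest apart. Col1a1, Col1a2 and Col3a1 made up most of the mesenchymal and osteoblast sum, and single markers of that list were spread widely. Bglap was at 29.47 CPM in S16 and 14.99 CPM in S23, and Alpl at 26.32 and 125.5 CPM. The remaining markers of the list were, like Alpl, higher in S23. Whether the members were spread unlike mesenchymal genes was not tested. Of the members, 7 were highest in S23, 2 in S19 and 1 in S16. The share of all tested genes that were highest in S23 was not computed. S23 was also the only library with high Xist and without Y-linked counts, and a part of sex in its levels was not tested. Between the sites, all 6 marrow niche stroma markers, Cxcl12 among them, had a log2 fold change below 0 and none was called, with a median of -0.93, against 4.75 for the 12 mesenchymal and osteoblast markers. The mural and smooth muscle list had 3 of 5 and the chondrocyte list 2 of 4 tested markers called higher, with sums of 49.1 to 160.4 and 52.1 to 121.4 CPM in the mandible and at most 11.8 CPM in a femur library.

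The summed macrophage markers overlapped between the sites. They ran from 92.4 to 230.4 CPM in the femur and 129.5 to 134.0 CPM in the mandible, with Vcam1 called lower and none of the other 7 called. Of the 8 macrophage markers, Axl and Mrc1 had log2 fold changes above 0, at 1.17 and 0.12, and the other 6 below 0. Endothelial markers summed to 48.5 to 56.6 and 40.5 to 52.3 CPM with none of 5 tested called. B cell markers summed to 10.1 to 20.01 and 8.87 to 14.2 CPM and T and NK cell markers to 24.1 to 104.7 and 21.1 to 63.0 CPM, none called. Neutrophil markers summed to 3653 to 32400 and 3813 to 10180 CPM with 1 of 7 called lower, and erythroid markers to 135.5 to 970.9 and 48.6 to 99.8 CPM with 2 of 5 called lower. The part of any of these cells in the members' differences was not tested, and site and cell mix cannot be told apart in these libraries.

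**Figure D4:**
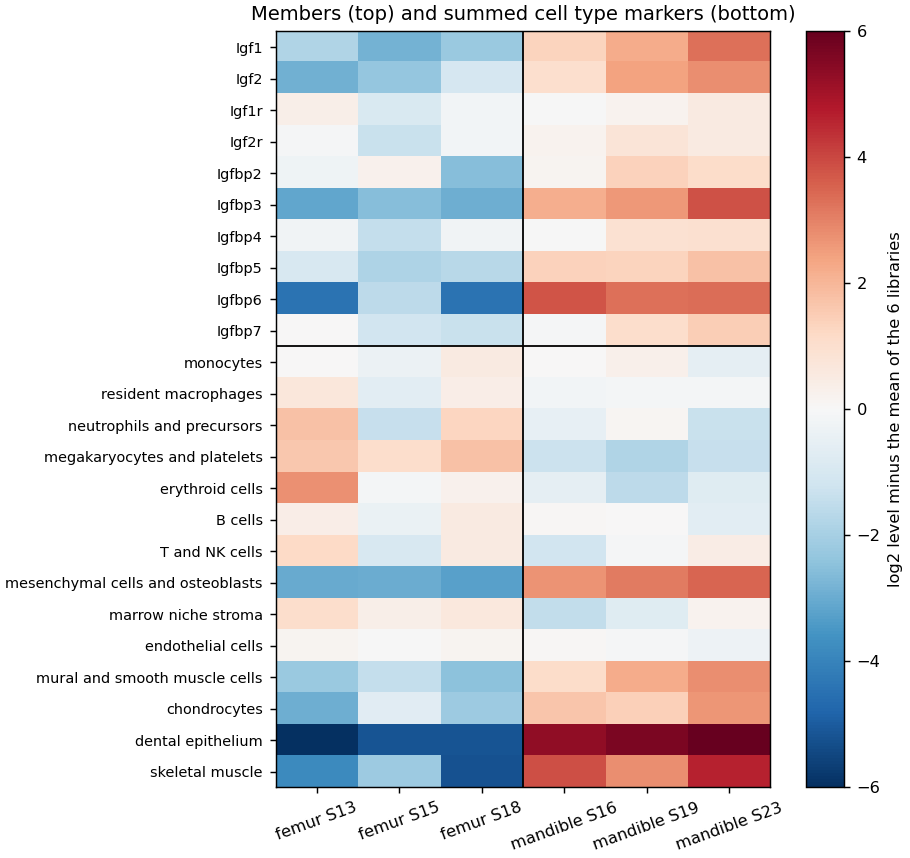
Members (rows above the line, log2 CPM) and summed cell type markers (rows below, log2 of summed CPM) in the 6 libraries, each row minus its own mean, on a colour scale from -6 to 6. Igf1, Igfbp3, Igfbp5 and Igfbp6 are red in the 3 mandible columns, Igfbp5 only lightly, and so is Igf2, which was not called. The mesenchymal, mural, chondrocyte, dental epithelium and skeletal muscle rows are red there too, while the monocyte row is pale.

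The 4 calls held in each fit that left out 1 library, and without both S15 and S23. Over the fits without 1 library the log2 fold change ran from 4.07 to 5.13 for Igf1, 5.25 to 6.25 for Igfbp3, 2.75 to 3.27 for Igfbp5 and 6.22 to 11.85 for Igfbp6.

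**Figure D5:**
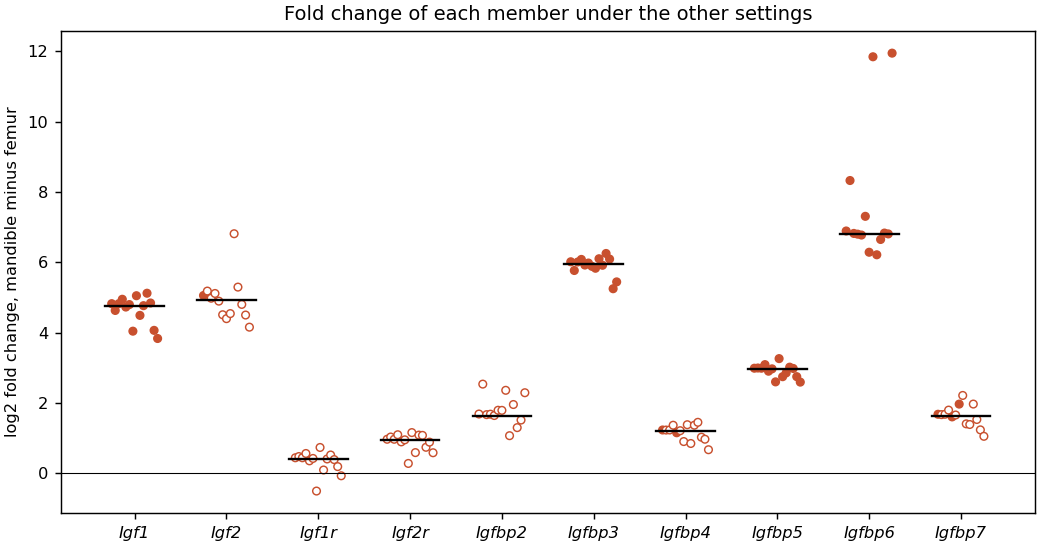
Log2 fold change of each member, mandible minus femur, with all 6 libraries (black bar) and under 13 or 14 other settings (points, filled where called). Igf1, Igfbp3, Igfbp5 and Igfbp6 are filled throughout, and Igf1r crosses 0.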

How the data were processed

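Marrow monocyte RNA was sequenced as 3 mandible and 3 femur libraries. After trimming, the authors mapped read pairs to a genome named GRCm38 (HISAT2 2.1.0 per the submitters' processing notes) and deposited the raw counts per gene that featureCounts gave. The featureCounts version, strand setting and treatment of reads with several positions are not given in the sources used here. The listed intervals of 0 of the 10 members lay inside the GENCODE M21 gene, so positions come from M21 (GRCm38) by Ensembl identifier and upstream sequences from RefSeq (GRCm38.p6). The exon lengths are those of the count table.

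Genes were kept by filterByExpr (minimum count 10, minimum total 15), scaled by TMM and tested with edgeR 4.0.16 (quasi-likelihood, prior count 0.125, no covariates) in R 4.3.3, with BH adjustment over 18114 genes. Standard errors were derived from the quasi-likelihood test, as the absolute log2 fold change divided by the square root of its F statistic. For single values the test was an exact permutation test, two-sided (smallest p 0.1). Alternatives were DESeq2 1.42.0, limma-voom (limma 3.58.1), RLE size factors, no normalization factors, 2 other filters, a loess correction for gene length (span 0.4), no fold change threshold and each library left out, and for shares and ratios no division by length and no Igfbp7. Leaving out S15 and S23 together was added after the data were seen. The members and the pathway and marker lists were chosen with earlier results of these data known. Named genes are the members, the called (at most 3) and 2 most abundant genes of each part of the pathway list, marker genes, sex-linked genes and the 3 nearest genes of each called member. A gene that this rule names is not reported here.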

Additional observations from a re-analysis of the deposited data

How the results depend on the processing

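No paired analysis was possible because the libraries carry no shared numbers or animals in the labels. Of 137 member values under other settings, 135 kept their direction and 129 also their call. The log2 fold change of Igf1r reversed to -0.50 after the length correction, which moved the median of all genes from -0.038 to -0.18, and to -0.065 without both S15 and S23. DESeq2 also called Igf2 (5.06), Igfbp4 (1.24) and Igfbp7 (1.68), 7 members in all. Igfbp4 (1.16) and Igfbp7 (1.61) were called without a filter, and Igfbp7 (1.97) after the length correction. Igf2, Igfbp2 and Igfbp6 gave no value when 10 counts were required in every library. With limma-voom 3 rather than 5 pathway genes were called. The number of genes called over the table was 938, but 1547 with DESeq2 and 1590 without a filter, and 434 to 1565 when 1 library was left out (509 without S13, 1565 without S15, 552 without S18, 434 without S19 and 551 without S23), which moves the background of the member count. The share of Igfbp5 rose by 22.0 rather than 15.7 percentage points and that of Igfbp6 by 2.06 rather than 8.03 points when counts were not divided by length. The causes of these changes were not tested. Depth limits Igf2, Igfbp2 and the femur value of Igfbp6.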
